A study of Mus musculus with 9 samples.

Results

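The 10 genes described here respond to amino acid shortage or to unfolded protein in the endoplasmic reticulum (ER): Atf4, Ddit3, Asns, Trib3, Chac1, Sesn2, Hspa5, Herpud1, Xbp1 and Slc7a11. They were chosen by name, and each matched 1 of the 24102 rows of the deposited expression table. RNA was sequenced from GFP-positive cells sorted out of dissociated limbs of mouse embryos at E12.5. Mutant cells had the genotype Shox2(Cre/-);Rosa(mTmG) and control cells Shox2(Cre/+);Rosa(mTmG), so both groups carried a Cre allele at Shox2 and the reporter at Rosa, and the mutants also had a mutant second Shox2 allele. Cre made from the Shox2 locus turns the reporter from red to green, so green cells are those that make or once made Shox2, a homeodomain factor of the proximal limb. The table holds 3 mutant and 3 control columns, 1 of each from litters 1, 2 and 3. Whether the litter 1 mutant column holds 1 of the 2 labelled samples or both was not stated, nor was the number of embryos behind a column. All values below are FPKM, that is fragments scaled to transcript length and for sequencing depth. The depth scaling was Cuffdiff's geometric normalisation, named for every litter on its own, so scalings may differ between litters. All SDs are over n = 3 columns per group.

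ATF4 is a transcription factor whose protein is made when eIF2alpha is phosphorylated, by kinases that sense missing amino acids, unfolded ER protein or other stress. It switches on genes for amino acid synthesis and uptake, and with prolonged stress Ddit3, which encodes CHOP. Unfolded ER protein also acts through ATF6 and through IRE1, which splices the Xbp1 transcript, and both raise chaperones such as the one encoded by Hspa5. Limb mesenchyme secretes much matrix protein, which is folded in the ER. A level per gene shows neither the translation of Atf4 nor the splicing of Xbp1. The comparison asks whether these genes differ between mutant and control cells together with genes that respond to low oxygen.

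Shox2 was at 16.7, 18.3 and 96.9 FPKM in the mutants of litters 1, 2 and 3, against 217, 222 and 210 FPKM in the controls. The mutant of litter 3 thus kept 46.2% of its control's level, where the others kept 7.68% and 8.25%. Of 9 listed markers of limb mesenchyme 8 matched a row, and none was at 0 in any column. In litter 2 the Y-linked Kdm5d was listed at 0 in the mutant and at 4.78 FPKM in the control, so sex composition and genotype cannot be told apart there. Xist, made from the inactive X chromosome of females, was at 36.8, 178 and 68.4 FPKM in the mutants and 12.1, 34.6 and 73.0 FPKM in the controls. In litter 1 Xist was thus higher in the mutant, while both columns held Y-linked RNA. Kdm5d was at 6.55 FPKM in that mutant and 8.86 FPKM in its control, and the Y-linked Eif2s3y at 22.4 and 21.6 FPKM. A difference in sex composition in litter 1 cannot be told apart from genotype either. Markers of other cells were present as well. The 5 matched red cell genes had a summed level that ran from 223 to 680 FPKM in the mutants and from 322 to 575 FPKM in the controls. Endothelial markers summed to 4.80 to 4.93 FPKM in the mutants and 5.06 to 12.9 FPKM in the controls, and surface ectoderm to 8.66 to 12.3 FPKM in the mutants and 8.02 to 24.4 FPKM in the controls. Muscle ran from 45.8 to 49.4 FPKM in the mutants and 26.0 to 73.9 FPKM in the controls, nerve and glia from 61.0 to 85.5 FPKM in the mutants and 46.1 to 85.9 FPKM in the controls, and leukocytes from 9.60 to 17.3 FPKM in the mutants and 12.1 to 15.1 FPKM in the controls. The control of litter 2 had the highest endothelial, ectodermal, muscle and nerve sums, and the leukocyte genes Ptprc and Aif1 were listed at 0 there. In such bulk samples, fewer cells of a type and less RNA per cell cannot be told apart.

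The 10 genes spanned a wide range of levels in both genotypes. Hspa5, the ER chaperone BiP, was the most abundant, at 446 to 544 FPKM over the 6 columns, above 99.7% of all rows with a value. Atf4 came next at 101 to 124 FPKM, and Xbp1 followed at 43.1 to 66.4 FPKM, with no overlap between these 3 genes. Asns at 19.7 to 28.9 FPKM and Herpud1 at 18.5 to 31.2 FPKM overlapped each other, and Ddit3 at 7.37 to 18.9 FPKM reached the lower end of Herpud1. Sesn2 at 2.67 to 4.52 FPKM and Slc7a11 at 1.28 to 5.30 FPKM overlapped as well. Trib3 ran from 0.396 to 1.64 FPKM and Chac1 from 0 to 0.537 FPKM, and neither reached the 1 FPKM in 3 columns that was asked for before testing. The other 8 entered the test.

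**Figure D1:**
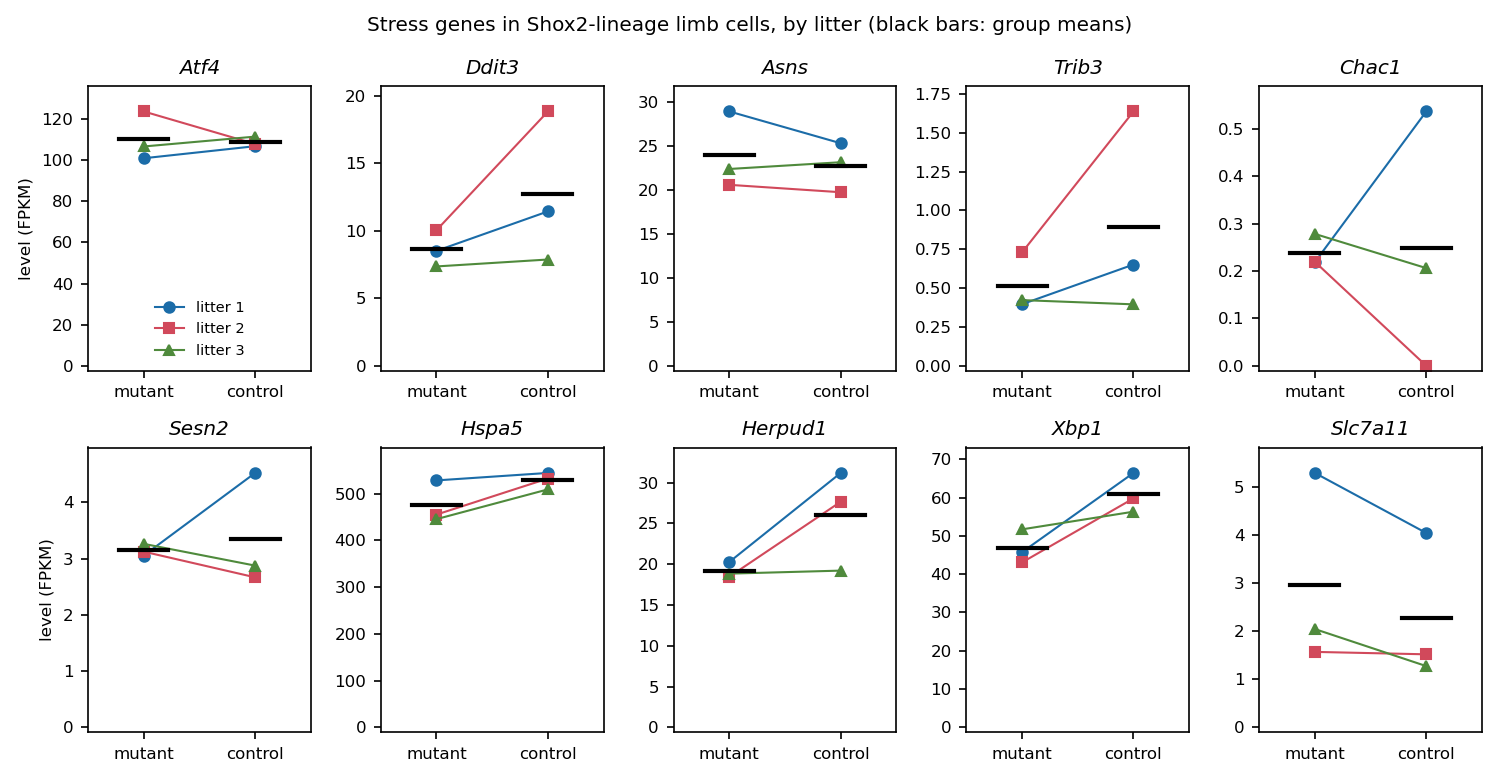
Level in FPKM of each of the 10 stress genes in mutant and control columns, on axes from 0, with a line joining the columns of a litter and a black bar at each group's mean. Xbp1 is the only gene with all 3 mutant columns (43.1 to 51.7 FPKM) below all 3 control columns (56.3 to 66.4 FPKM).

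The windows shown are the 250 bases before the RefSeq start of 5 of these genes in GRCm38.p6, a later build than the mm9 of the deposited values. They carry the DNA elements for which the pathway's factors are known. All 10 genes had such a window. The element bound by ATF4 with C/EBP partners, searched as TGATGNAA on both strands, was in the windows of 4 of the 10 genes and in 3.45% of 32851 mouse windows of that length. The ER stress element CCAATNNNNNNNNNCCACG, bound by ATF6 with NF-Y, was in 1 of the 10 and in 0.113% of all windows. No part of one element overlapped the other, a match is a description and not a binding site, and capitals mark the matches.
Asns (chr6:7693210-7693459, minus strand): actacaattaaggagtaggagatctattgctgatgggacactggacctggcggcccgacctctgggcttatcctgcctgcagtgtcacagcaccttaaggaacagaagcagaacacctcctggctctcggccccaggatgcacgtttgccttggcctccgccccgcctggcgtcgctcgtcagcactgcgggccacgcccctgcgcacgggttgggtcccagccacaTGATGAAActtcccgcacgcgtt
Chac1 (chr2:119350992-119351241, plus strand): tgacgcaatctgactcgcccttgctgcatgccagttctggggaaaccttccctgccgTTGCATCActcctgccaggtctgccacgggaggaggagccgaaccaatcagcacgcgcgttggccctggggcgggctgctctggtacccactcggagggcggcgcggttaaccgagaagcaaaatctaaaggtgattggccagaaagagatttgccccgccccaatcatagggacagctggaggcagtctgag
Slc7a11 (chr3:50443614-50443863, minus strand): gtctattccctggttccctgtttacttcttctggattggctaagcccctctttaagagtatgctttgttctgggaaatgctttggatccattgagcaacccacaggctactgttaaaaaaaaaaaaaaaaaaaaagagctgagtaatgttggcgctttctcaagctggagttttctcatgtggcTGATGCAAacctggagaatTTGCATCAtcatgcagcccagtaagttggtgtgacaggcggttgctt
Herpud1 (chr8:94386179-94386428, plus strand): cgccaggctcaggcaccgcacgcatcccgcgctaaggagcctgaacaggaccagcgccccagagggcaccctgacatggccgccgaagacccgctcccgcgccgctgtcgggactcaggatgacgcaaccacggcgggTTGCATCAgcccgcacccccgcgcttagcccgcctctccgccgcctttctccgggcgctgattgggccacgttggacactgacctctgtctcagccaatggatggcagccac
Hspa5 (chr2:34771840-34772089, plus strand): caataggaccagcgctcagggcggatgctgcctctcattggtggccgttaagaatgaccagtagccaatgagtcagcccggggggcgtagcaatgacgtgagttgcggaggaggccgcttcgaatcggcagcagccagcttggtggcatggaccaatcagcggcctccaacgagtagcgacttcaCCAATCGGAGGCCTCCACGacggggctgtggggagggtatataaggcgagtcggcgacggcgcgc
The first 4 windows hold TGATGNAA or its reverse complement, and Slc7a11 holds it once on each strand. The Hspa5 window holds the ER stress element. ACGTG, the core of the element bound by hypoxia-inducible factors, was in the windows of 3 of the 10 genes. Of 23 low-oxygen genes 20 had a window, and 15 of these held ACGTG in at least 1 window. Of all windows 16.6% held it, a share per window where the counts are per gene.

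Atf4 itself was at 101, 124 and 107 FPKM in the mutants of litters 1, 2 and 3, against 107, 108 and 111 FPKM in the controls. The mutant of litter 2 was the highest column and the other mutants were the lowest, so the groups overlapped. The log2 change was 0.02 (SE 0.14), with a 95% interval from -0.32 to 0.35, or from -0.26 to 0.30 with litter as a block. Asns, which makes asparagine and is a classic ATF4 target, was at 28.9, 20.6 and 22.4 FPKM in the mutants and 25.3, 19.7 and 23.1 FPKM in the controls. Litter 1 was the highest in both genotypes, and the log2 change was 0.07 (95% interval -0.36 to 0.49, or -0.19 to 0.32 with the block). Asns is in the deposited list of genes named as directly repressed by Shox2, the only 1 of the 10 that is.

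Slc7a11, the cystine importer of the plasma membrane, was at 5.30, 1.57 and 2.05 FPKM in the mutants and 4.05, 1.52 and 1.28 FPKM in the controls. Both columns of litter 1 lay above the 4 others, and the mutant lay above its own control in 3 of 3 litters, at 131%, 103% and 161% of it. The log2 change was 0.26 (SE 0.44, or 0.15 with the block), and it did not pass (limma adjusted p = 1.00, or 0.504 with the block). Without the litter 1 mutant alone, which leaves its high control in place, the log2 change was -0.13. With the block but without the litter 1 pair it was 0.23. Sesn2, which signals leucine shortage to the growth kinase mTORC1, was at 3.06, 3.13 and 3.26 FPKM in the mutants and 4.52, 2.67 and 2.88 FPKM in the controls. Only the litter 1 control stood apart, and without it the log2 change of -0.05 (SE 0.19) became 0.14.

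Ddit3, whose product CHOP is a pro-apoptotic factor of prolonged stress, was at 8.52, 10.1 and 7.37 FPKM in the mutants and 11.4, 18.9 and 7.88 FPKM in the controls. It was below the control in 3 of 3 litters, at 74.5%, 53.3% and 93.5% of it, with overlap between the groups since the litter 3 control was among the low columns. The log2 change was -0.44 (SE 0.30), which did not pass (limma adjusted p = 1.00, or 0.388 with the block; exact permutation p = 0.3). The highest column was the litter 2 control, the column with the highest sums of endothelial, ectodermal, muscle and nerve markers, whose part in the result was not tested. Without that column alone, which leaves its litter's mutant in place, the log2 change was -0.13. Over the 6 omissions of a column it ran from -0.71 to -0.13. With the block but without the pair of litter 1, 2 or 3 it was -0.47, -0.24 and -0.62.

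Trib3 and Chac1 are induced by ATF4 and CHOP, Trib3 as a pseudokinase that restrains ATF4 and Chac1 as an enzyme that breaks down glutathione. Trib3 was at 0.397, 0.730 and 0.423 FPKM in the mutants and 0.652, 1.64 and 0.396 FPKM in the controls. Litter 2 was the highest in both genotypes, as for Ddit3, and the exact permutation p was 0.7. Chac1 was at 0.219, 0.220 and 0.279 FPKM in the mutants and 0.537, 0 and 0.206 FPKM in the controls. With values this low and 1 column listed at 0, no direction can be read for Chac1 (exact permutation p = 0.8).

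Xbp1, the factor that drives ER expansion once its transcript is spliced, was at 45.7, 43.1 and 51.7 FPKM in the mutants and 66.4, 59.8 and 56.3 FPKM in the controls. The mutants lay at 68.9%, 72.0% and 91.8% of their controls and did not overlap with them. The log2 change was -0.37 (SE 0.14, 95% interval -0.71 to -0.03), with limma adjusted p = 1.00, or 0.365 with the block. The exact permutation test over columns, which ignored litter, gave a two-sided p of 0.1, and 3 columns a group cannot give a lower one. Rows without overlap and lower in the mutants made up 5.03% of the 12314 tested.

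Herpud1, an ER membrane protein of the degradation machinery, was at 20.3, 18.5 and 18.8 FPKM in the mutants and 31.2, 27.7 and 19.2 FPKM in the controls. The 3 mutants were alike, and the controls of litters 1 and 2 lay above them while that of litter 3 did not stand apart. The log2 change was -0.39 (SE 0.20), again short of the threshold (limma adjusted p = 1.00, or 0.388 with the block; exact permutation p = 0.2). Hspa5 was at 528, 455 and 446 FPKM in the mutants and 544, 533 and 509 FPKM in the controls. It was at 97.1%, 85.5% and 87.5% of its control, with the litter 1 mutant inside the range of the controls. Its log2 change was -0.15 (95% interval -0.55 to 0.24). For Ddit3, Herpud1 and Xbp1 the difference was the smallest in litter 3, where the mutant kept the most Shox2, while for Hspa5 it was the smallest in litter 1. The part of the remaining Shox2 in this was not tested.

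**Figure D2:**
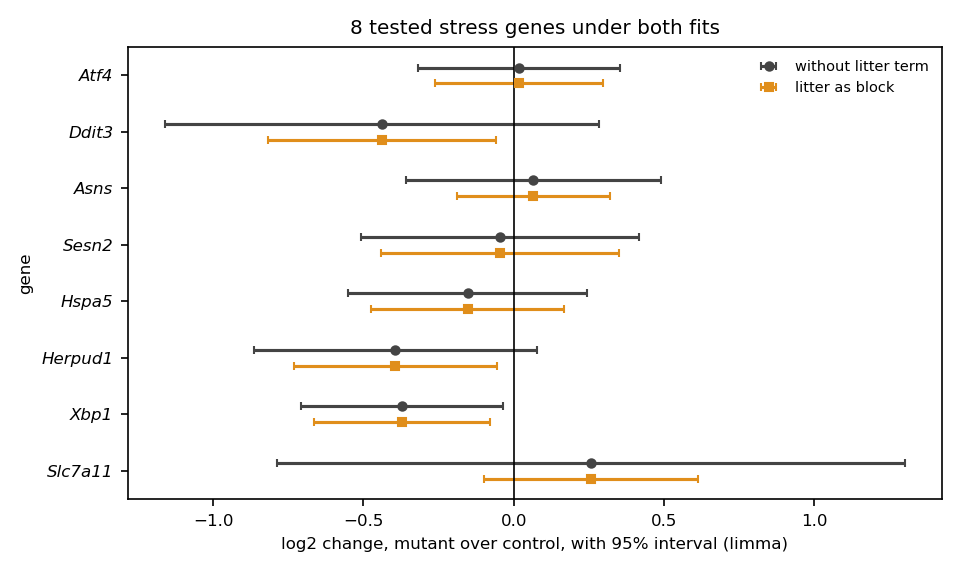
Log2 change of mutant over control on the log2(FPKM + 1) scale with its 95% interval from limma for the 8 tested stress genes, without a litter term (circles) and with litter as a block (squares). Intervals with the block lie wholly below 0 for Ddit3, Herpud1 and Xbp1, and the Atf4 interval runs from -0.26 to 0.30.

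Of the 8 tested genes, limma called 0 higher and 0 lower over all rows at an adjusted p under 0.05, where it called 0% of the 12314 rows in each direction, and 0% with the block. At an unadjusted p under 0.05 there was 1 gene lower, Xbp1, and 0 higher, against 1.36% of rows lower and 2.21% higher. With the block there were 3 lower, Ddit3, Herpud1 and Xbp1, and 0 higher, against 6.29% of rows lower and 5.34% higher. Mutants were below controls in 3 of 3 litters for 4 of the 8, where 22.3% of all tested rows were, and above in 3 of 3 litters for 1, where 15.7% of rows were. The median log2 change of the 8 was -0.10, against -0.04 over all tested rows. It was -0.06 without the litter 1 control, -0.18 without the litter 1 mutant, and -0.26 over the 6 genes whose mean over columns reached 5 FPKM. Medians of the 8 within litters 1, 2 and 3 were -0.23, -0.10 and -0.05, against -0.07, -0.03 and 0.00 over all tested rows. A missed threshold in 3 columns against 3 does not show that levels were equal.

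Further genes of the pathway came from 8 lists with 90 symbols, of which 88 matched a row and 84 were tested. With all 6 columns none passed over all rows, without the block or with it. Without adjustment 1 gene was higher and 1 was lower at a p under 0.05, against 2.21% of rows higher and 1.36% lower. With the block 2 were higher and 10 were lower, against 5.34% and 6.29% of rows. Genes of the eIF2alpha arm, its kinases, the exchange factor eIF2B and the phosphatase, had a median log2 change of -0.11 over 12 tested, none with an unadjusted p under 0.05 in either fit. Eif2ak3, the kinase PERK that senses unfolded ER protein, was at 9.74, 7.54 and 8.20 FPKM in the mutants and 11.6, 8.64 and 10.1 FPKM in the controls. The eIF2B subunit genes Eif2b1 and Eif2b3 had log2 changes of -0.26 and -0.31. Partners and co-factors of ATF4 had a median of 0.12 over 5 tested, which was 0.02 without the litter 2 control and -0.01 with the block but without the litter 2 pair, with Atf5 at -0.38, Cebpb at 0.24 and Jdp2 at 0.16. With the block 1 of the 5 was lower at an unadjusted p under 0.05, Atf5, a stress-induced relative of ATF4 (limma adjusted p = 0.376).

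Genes of amino acid synthesis and one-carbon metabolism, with secreted ATF4 targets, had a median log2 change of -0.05 over 14 tested, which turned to just above 0 with quantile normalisation. With the block 2 were higher and 3 were lower at p under 0.05 before adjustment, against 5.34% and 6.29% of rows. Stc2, a secreted glycoprotein that is induced by ER stress and also by low oxygen, was at 2.25, 5.47 and 1.60 FPKM in the mutants and 0.885, 0.983 and 0.674 FPKM in the controls. All mutants lay above all controls, as did 4.22% of tested rows, with a log2 change of 1.04 (SE 0.34) that did not pass (limma adjusted p = 1.00, or 0.189 with the block). Cth, which makes cysteine, was at 7.49, 7.21 and 7.41 FPKM in the mutants and 5.86, 5.63 and 6.34 FPKM in the controls, again without overlap. Mthfd2, a mitochondrial one-carbon enzyme and ATF4 target, went the other way without overlap, as did 5.03% of tested rows. It was at 16.8, 18.9 and 18.4 FPKM in the mutants and 19.7, 22.6 and 22.2 FPKM in the controls. Gdf15, a secreted stress signal named here after its values were seen, was listed at 0 in every control and in the litter 3 mutant, and at 0.122 and 0.465 FPKM in the mutants of litters 1 and 2.

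Amino acid transporters had a median log2 change of -0.10 over 7 tested, which was -0.22 without the litter 1 control or without the litter 2 mutant, and aminoacyl-tRNA synthetases with the tRNA exporter Xpot one of -0.14 over 13 tested. With the block 1 gene of each list was lower at an unadjusted p under 0.05 and 0 were higher, against 6.29% and 5.34% of rows. Slc7a5, the importer of large neutral amino acids, was that transporter, at 5.78, 9.55 and 9.18 FPKM in the mutants and 8.43, 10.4 and 11.8 FPKM in the controls. The transporters Slc6a9 and Slc1a4 had log2 changes of -0.25 and -0.10. Aars, the alanyl-tRNA synthetase, was at 39.7, 36.2 and 38.9 FPKM in the mutants and 47.7, 44.8 and 44.6 FPKM in the controls. It was lower with no overlap, the only 1 of the 13 in its list, against 5.03% of all tested rows. The synthetase genes Wars and Mars had log2 changes of -0.32 and -0.22. Of the 13 in this list, 7 were lower in 3 of 3 litters and 0 were higher, against 22.3% and 15.7% of tested rows.

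Chaperones and folding enzymes of the ER had a median log2 change of -0.18 over 13 tested, with 7 lower and 0 higher in 3 of 3 litters, against 22.3% and 15.7% of tested rows. Without overlap 3 of the 13 were lower, namely Creld2, Dnajb11 and Hyou1, against 5.03% of rows. With the block 2 of the 13 were lower at an unadjusted p under 0.05, Creld2 and Dnajb11, and 0 were higher. Of all tested rows, 6.29% were lower at that p with the block and 5.34% were higher. Creld2, a secreted ER stress protein, was at 32.5, 34.1 and 37.8 FPKM in the mutants and 41.8, 43.1 and 48.1 FPKM in the controls, or 77.8%, 79.2% and 78.6% of its control. Its log2 change was -0.34 (SE 0.13, limma adjusted p = 1.00, or 0.322 with the block), of like size in each litter. Dnajb11, a co-chaperone of BiP, was at 47.6, 44.7 and 50.2 FPKM in the mutants and 53.9, 61.3 and 59.6 FPKM in the controls. Hyou1, an exchange factor of BiP, was at 56.1, 51.9 and 55.4 FPKM in the mutants and 70.3, 57.8 and 65.1 FPKM in the controls. Sensors and signalling genes had a median of -0.05 over 9 tested, with Ern1, which encodes IRE1, at -0.18, the tRNA ligase Rtcb at -0.14 and Atf6 at 0.19. With the block 1 of the 9 was lower at an unadjusted p under 0.05 and 0 were higher, against 6.29% and 5.34% of rows. That gene was Creb3l1, an ER stress factor of bone-forming cells named here after its values were seen, at 3.94, 17.8 and 17.4 FPKM in the mutants and 6.41, 32.4 and 20.7 FPKM in the controls. It was at 61.5%, 54.9% and 84.0% of its control, with overlap between the groups and a log2 change of -0.55 (SE 0.72, limma adjusted p = 1.00, or 0.235 with the block). Degradation and translocon genes had a median of -0.11 over 11 tested, with Syvn1, a ubiquitin ligase of ER degradation, at -0.37, Derl3 at -0.34 and Vimp at -0.21. With the block 1 of the 11 was lower at an unadjusted p under 0.05, Syvn1 (limma adjusted p = 0.348), and 0 were higher. The shares of all rows were again 6.29% and 5.34%.

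**Figure D3:**
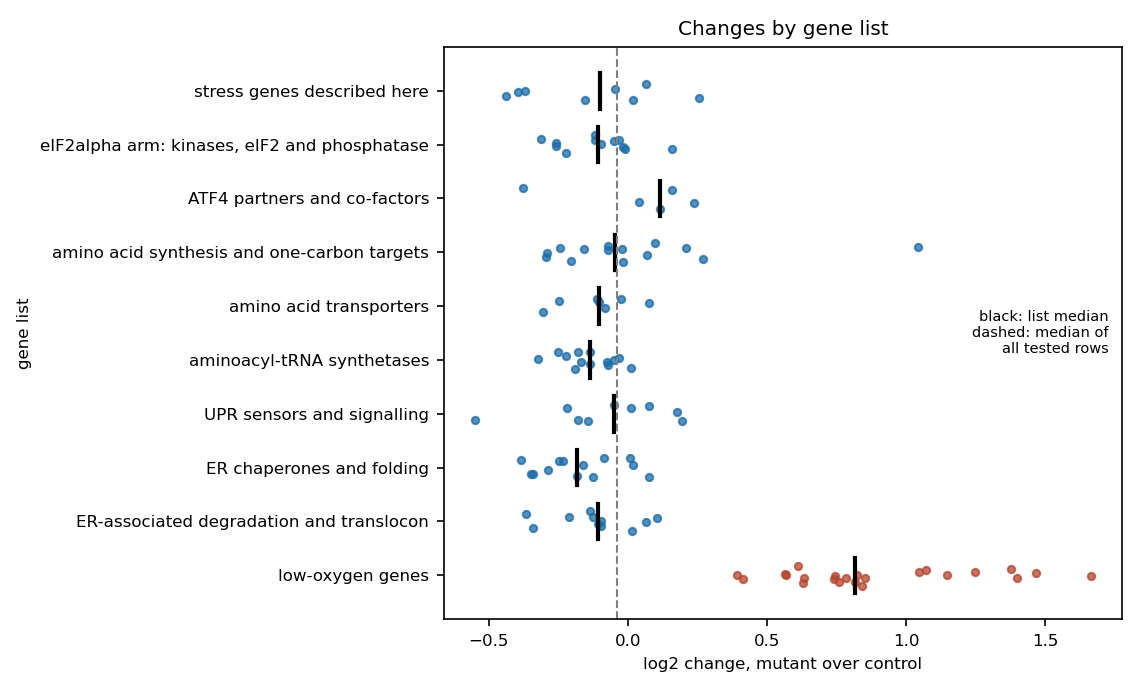
Log2 change of mutant over control for each tested gene (points) of the 10 stress genes, the 8 further stress lists and the low-oxygen list, with list medians as black bars and the median of all tested rows, -0.04, as a dashed line. The stress lists have medians from -0.18 to 0.12, the low-oxygen list one of 0.82, and the single stress gene near 1 is Stc2.

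The low-oxygen list, 23 genes of glucose uptake, glycolysis, mitophagy and oxygen sensing, had a median log2 change of 0.82. All 23 were tested, and mutants were above controls in 3 of 3 litters for each of them, where 15.7% of rows were. None passed over all rows (limma adjusted p from 0.525 to 1.00, or from 0.0643 to 0.384 with the block), and 19 had an unadjusted p under 0.05, or 23 with the block. Of all tested rows, 2.21% were higher at that p, or 5.34% with the block. Without the litter 1 control 12 of the 23 had such a p, where 311 of 12314 rows were higher at it. With the block but without the litter 1 pair, 0 of the 23 passed, where 0 of all rows were called higher. Without the litter 3 pair 7 passed, where 31 of all rows were called higher. In the fit with the block but without the litter 2 pair, 21 of the 23 passed, and 0 of the 8 tested stress genes did. That fit called 2.56% of all rows higher and 1.78% lower. Its p-values rest largely on variance shared over rows, since few columns remain. Of the 84 further stress genes that fit called Stc2 higher (log2 change 0.71, limma adjusted p = 0.00194) and Derl3 lower (log2 change -0.71, limma adjusted p = 0.00118). Derl3, a membrane protein of ER degradation, was at 54.4%, 166% and 41.5% of its control in the mutants of litters 1, 2 and 3, so that its direction in the omitted litter 2 was the opposite one. This list of low-oxygen genes was chosen with the pattern known, so its direction is a description.

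The glucose importer gene Slc2a1 was at 85.9, 173 and 62.7 FPKM in the mutants and 31.8, 42.4 and 31.3 FPKM in the controls. Bnip3, a mitophagy receptor, was at 52.9, 83.7 and 26.5 FPKM in the mutants and 19.8, 16.4 and 9.93 FPKM in the controls. Litter 2 had the largest difference for both. The lactate exporter Slc16a3 and hexokinase gene Hk2 had log2 changes of 1.25 and 1.05. The pyruvate dehydrogenase kinase gene Pdk1 and collagen prolyl hydroxylase gene P4ha1 had changes of 0.82 and 0.78. Each was higher without overlap, as were 18 of the 23 low-oxygen genes and 4.22% of all tested rows. Upper 95% limits for the 8 tested stress genes ran from -0.08 to 0.61 with the block and from -0.03 to 1.30 without it. The changes of the 23 low-oxygen genes ran from 0.39 to 1.67, as point estimates with intervals of their own. Without the block the interval of Pgk1 ran from -0.44 to 1.58 and that of Egln1 from -0.41 to 1.68. With the block all 23 intervals lay above 0.

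Genes known as targets of both responses can be set beside these. Ddit4, an mTORC1 inhibitor induced by hypoxia-inducible factors and by ATF4, was at 69.6, 211 and 72.2 FPKM in the mutants and 25.9, 51.8 and 42.9 FPKM in the controls. Ero1l, an ER oxidase of protein folding induced by low oxygen and by CHOP, named here after its values were seen, was at 19.3, 29.7 and 14.8 FPKM in the mutants and 10.3, 11.6 and 10.8 FPKM in the controls. In both genes all mutants lay above all controls, as did 4.22% of tested rows, and both were picked with this known.

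**Figure D4:**
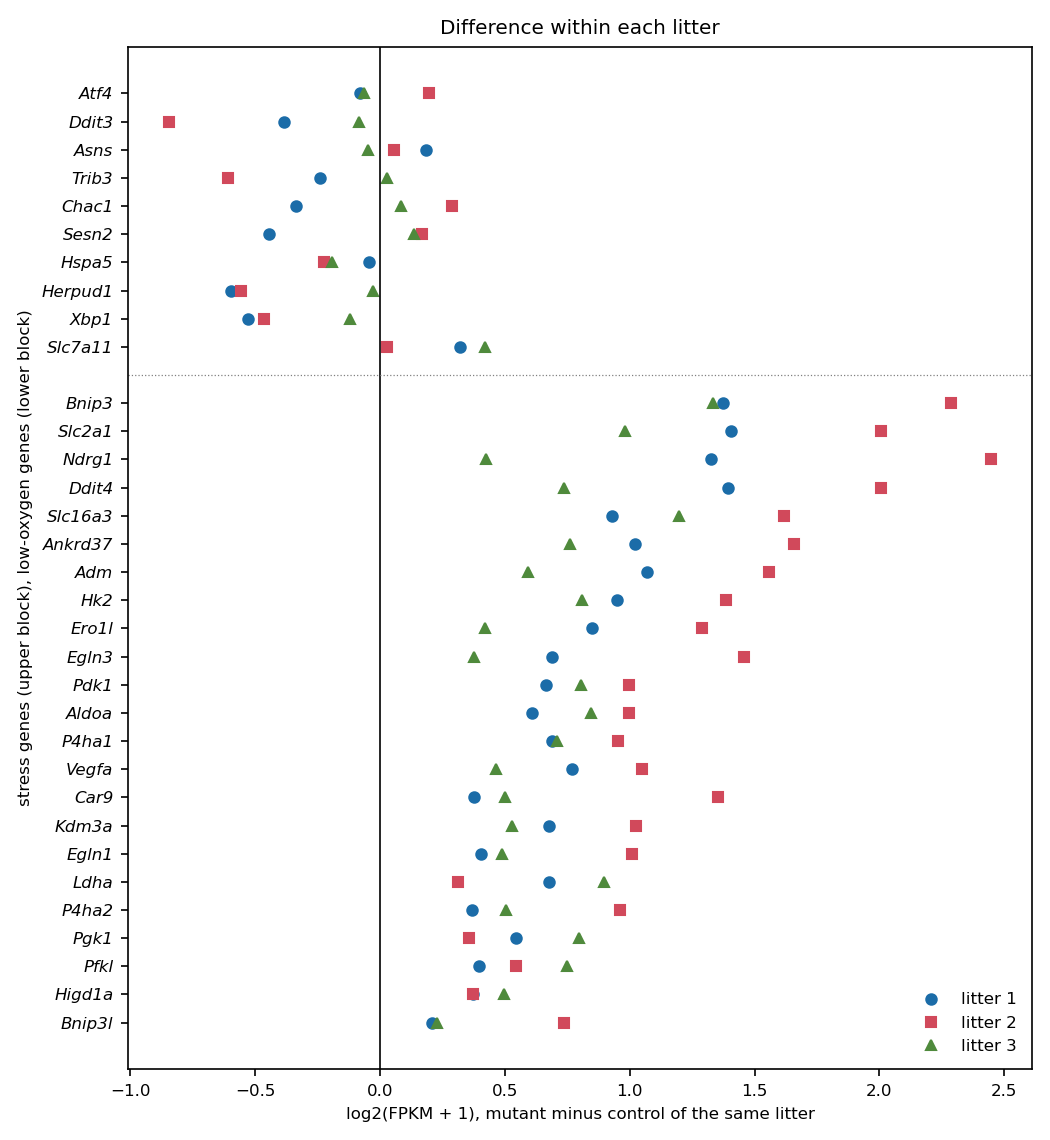
Difference in log2(FPKM + 1) between the mutant and the control of each litter for the 10 stress genes (upper block) and the 23 low-oxygen genes (lower block, ordered by their mean difference), with 1 symbol per litter. The low-oxygen genes lie to the right of 0 in each litter, while Atf4, Asns, Trib3, Chac1 and Sesn2 have litters on both sides.

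The rows most like a stress gene over the 6 columns were found by Pearson's r on log2(FPKM + 1) among 12100 single-gene rows, as a description of columns that share litters. For Atf4 they were Xylt2, 2810468N07Rik and Nyap1, at r = 0.984, 0.973 and 0.971. For Ddit3 they were Dnajc9, Derl1 and Hn1l, at 0.999, 0.994 and 0.993, and Derl1 is itself on the ER degradation list, at 30.2, 31.5 and 29.5 FPKM in the mutants and 32.9, 37.4 and 30.4 FPKM in the controls. For Asns they were A830082N09Rik, Zfp322a and Ipo7, at 0.999, 0.996 and 0.995, each highest in litter 1 in both genotypes. For Hspa5 they were Setdb2, Zscan29 and Ninl, at 0.994, 0.991 and 0.986. With 6 columns and this many rows, values near 1 are found for many genes.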

How the data were processed

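RNA of sorted limb cells was measured in 3 mutant and 3 control columns, and whole limbs were not analysed here. Per the submitters' processing notes, TopHat and Cuffdiff were used on mm9. Versions and the annotation were not given in the sources used here. The deposited FPKM values were made, per the file headers, with Cuffdiff's geometric normalisation, named above every litter on its own, so scalings may differ between litters. The headers do not name FPKM, and the unit was taken from what Cuffdiff reports. In litter 3, 44.5% of 1332 rows below 0.15 FPKM in mutant and control had log2 ratios within 0.05 of -1, 0 or 1. The share was 8.13% in litter 1 and 6.12% in litter 2, so whole reads were not recovered and depth is unknown. The control of litter 2 had the fewest rows above 0, at 14782, against 16705 to 17782 in the other columns. That column held the highest Ddit3 and Trib3 values and the 0 of Chac1. The part of its depth in these values was not tested.

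The comparison used limma 3.58.1 (R 4.3.3), trended on mean level, with log2(FPKM + 1) values of 12314 rows at 1 FPKM or more in at least 3 columns, with Benjamini-Hochberg adjustment at 0.05. This scale understates changes of low genes. The fit was run on simulated data with changes larger than those of the tested stress genes, to check the size of its estimates. Its ability to find smaller changes was not tested. A second fit had litter as a block, since the labels say that a number marks a litter, and deviations of the paired columns from their group means correlated at 0.87, 0.57 and 0.77. Limma p-values measure the spread between these columns, with each row's variance drawn toward that of rows of like level. With a litter pair left out few columns remain, and the p-values rest largely on variance shared over rows. Exact permutation tests are two-sided and ignore litter, since they shuffle columns between litters as well as within them. The members, lists and tests were chosen with earlier results of these data known. Genes named from a list are up to 3 with the smallest unadjusted p, plus Slc2a1, Bnip3, Slc16a3, Hk2, Pdk1 and Ddit4. Rows most like Atf4, Ddit3, Asns and Hspa5 are the first 3 by correlation. Promoter windows come from RefSeq, build GRCm38.p6.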

Additional observations from a re-analysis of the deposited data

How the results depend on the processing

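None of the 8 tested stress genes passed under any of the alternatives tried. Of 110 values over genes and alternatives, 103 kept their direction and 7 reversed. Dropping the filter, asking for a mean of 5 FPKM, or adding the block with all pairs left each log2 change the same. Those alternatives changed only the SE and p. Their values are among the 103 but could not reverse, so they do not test direction. Over the 6 omissions of a column, the log2 change ran from -0.066 to 0.079 for Atf4, from -0.072 to 0.16 for Asns, from -0.16 to 0.14 for Sesn2 and from -0.13 to 0.62 for Slc7a11. With litter as a replicate block it was -0.072 for Atf4 without the litter 2 pair and 0.15 for Sesn2 without the litter 1 pair. The cause was not tested. Ddit3, Herpud1, Hspa5 and Xbp1 kept their direction throughout, from -0.71 to -0.13, -0.59 to -0.25, -0.23 to -0.06 and -0.50 to -0.29.

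Over all rows limma called 0 higher and 0 lower, and again 0 and 0 with the replicate block, while 272 rows were higher and 167 were lower at a p under 0.05 before adjustment. Leaving out a column gave 0 to 1 higher and 0 to 1 lower. The replicate block called 315 higher and 219 lower without the litter 2 pair, and 31 higher and 5 lower without the litter 3 pair. With all 3 pairs the block changed no call on the 8 stress genes, and without the litter 2 pair it called Stc2 and Derl3 of the further lists. The number of the 8 below an unadjusted p of 0.05 and lower ran from 0 to 3 over the alternatives, and of those higher from 0 to 1, Slc7a11 with the block but without the litter 2 pair (log2 change 0.37). Medians ran from -0.26 to -0.06 for the 8 genes and from -0.22 to -0.04 for the transporters. They ran from -0.01 to 0.30 for the ATF4 partners, from -0.10 to 0.09 for the sensors and from -0.11 to 0.02 for amino acid synthesis. For the eIF2alpha arm the range was -0.15 to -0.05, and for the synthetases -0.22 to -0.06. For the ER chaperones it was -0.27 to -0.08, and for the degradation genes -0.15 to -0.06. Over all tested rows it was -0.07 to 0.01. Levels under 1 FPKM, as for Trib3 and Chac1, cannot show a moderate difference here.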
